A study of Mus musculus with 46 samples.

Results

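The genes described here are the colony-stimulating factor (CSF) receptors and their ligands, 7 of the 21231 genes listed in this mouse RNA-seq study: *Csf1r*, *Csf1*, *Il34*, *Csf2ra*, *Csf2rb*, *Csf2rb2* and *Csf3r*. The rule takes rows by symbol and sets no threshold on a measured value. The deposited tables give FPKM, a level of fragments scaled to transcript length and library depth, for 46 libraries from 2-month-old male C57BL/6 mice in 3 tables that were normalized separately, so levels are compared within a table only. The subventricular zone (SVZ) table lists 5 of the 7 genes among 15695 (*Csf2rb* and *Csf2rb2* are not listed), the LPS table lists 6 among 15285 (*Il34* is not listed) and the GLOBAL table lists all 7 among 19930.

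The study fed mice chow with PLX3397, a small-molecule inhibitor of CSF1R and of the related kinases KIT and FLT3, to eliminate microglia and then withdrew the drug. SVZ tissue was micro-dissected from vehicle-fed control mice, from mice given PLX3397 for 14 days, and from mice given PLX3397 for 14 days and then vehicle chow for 5 days (n = 5 libraries each). In the LPS table, CD11b+CD45int cells were sorted, per the study's methods, from brain hemispheres of vehicle-fed controls (0 hr n = 3, 6 hr n = 5, 24 hr n = 4) and of mice 28 days after a 14 day treatment, which the study calls WM repopulation (n = 4 at each time). The 6 hr and 24 hr animals received 0.33 mg/kg lipopolysaccharide (LPS), a bacterial cell wall component, into the abdomen, and the 0 hr animals received none. In the GLOBAL table, cells from the same gate came from controls (n = 4) and from mice 28 days after a 7 day treatment (GLOBAL repopulation, n = 3). The gate holds any cell with these surface levels, so repopulated cells are named by the treatment and not by origin. The labels number the libraries of a group but do not tie each to an animal, so p-values measure the spread between these libraries.

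CSF1R is a receptor tyrosine kinase on microglia and other macrophages, and adult microglia need its signal to survive. It has a pair of ligands, CSF1 and IL-34, and in the adult forebrain IL-34 comes largely from neurons while CSF1 comes largely from glia. CSF2RA is the ligand-binding alpha chain of the receptor for GM-CSF (the product of *Csf2*). CSF2RB is the beta chain shared by the receptors for GM-CSF, interleukin 3 and interleukin 5, and mice carry a close copy, *Csf2rb2*, whose product serves interleukin 3. CSF3R is the receptor for G-CSF (the product of *Csf3*) and is best known from neutrophils.

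Positions on GRCm38, taken from the GENCODE annotation over the whole gene body, were chr3:107741048-107760469 on the minus strand for *Csf1*, chr8:110741829-110805924 (minus) for *Il34*, chr19:61223957-61228429 (minus) for *Csf2ra*, chr15:78325752-78353847 (plus) for *Csf2rb*, chr15:78282507-78305721 (minus) for *Csf2rb2* and chr4:126024550-126044440 (plus) for *Csf3r*. Exons of *Csf1r* overlap those of *Hmgxb3* on the opposite strand, and exons of *Il34* overlap *Gm15894* and *Gm15895*. With no stated use of strand in the counting, reads of such pairs cannot be told apart. *Csf1*, *Csf2ra* and *Csf3r* had no overlapping exons.

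*Csf2rb* and *Csf2rb2* lie next to each other on opposite strands and their coding sequences were near copies, which bears on every value of the beta chain below. Over 2628 aligned bases, 2503 were identical (95.2%). Of the 2646 windows of 43 bases (the stated read length) in the *Csf2rb* coding sequence, 799 (30.2%) occurred unchanged in *Csf2rb2*, so reads from those windows could be split or dropped. The counted lengths (4765 bases for *Csf2rb* and 4619 for *Csf2rb2*) also hold non-coding parts, which were not compared. Both genes' levels are uncertain to an extent that was not measured. The stretch of 60 bases with the most differences is shown first, to show where reads can be told apart, with the 13 differing bases in capitals (coding positions 304 to 363 of *Csf2rb* and 307 to 366 of *Csf2rb2*). The third sequence is a stretch with 0 differences, at positions 245 to 304 of *Csf2rb* and 248 to 307 of *Csf2rb2*.
Csf2rb: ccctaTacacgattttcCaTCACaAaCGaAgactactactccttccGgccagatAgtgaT
Csf2rb2: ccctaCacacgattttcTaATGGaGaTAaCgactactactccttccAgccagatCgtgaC
Both genes: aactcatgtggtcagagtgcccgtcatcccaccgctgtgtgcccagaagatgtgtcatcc

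Promoter sequences from RefSeq (build GRCm38.p6) were held for 4 of the 7 genes, and the 250 bases before each start site are shown because these 4 genes moved with LPS or with PLX3397. They lie at chr3:107760470-107760719 (minus) for *Csf1*, chr19:61228419-61228668 (minus) for *Csf2ra*, chr15:78305722-78305971 (minus) for *Csf2rb2* and chr4:126024409-126024658 (plus) for *Csf3r*. Capitals mark matches to one of 5 motifs searched on both strands, with overlaps allowed.
Csf1: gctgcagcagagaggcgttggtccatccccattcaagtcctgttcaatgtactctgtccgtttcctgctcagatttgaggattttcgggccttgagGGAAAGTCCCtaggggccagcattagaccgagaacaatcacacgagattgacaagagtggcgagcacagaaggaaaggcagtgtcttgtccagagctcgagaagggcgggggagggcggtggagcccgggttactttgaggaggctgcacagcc
Csf2ra: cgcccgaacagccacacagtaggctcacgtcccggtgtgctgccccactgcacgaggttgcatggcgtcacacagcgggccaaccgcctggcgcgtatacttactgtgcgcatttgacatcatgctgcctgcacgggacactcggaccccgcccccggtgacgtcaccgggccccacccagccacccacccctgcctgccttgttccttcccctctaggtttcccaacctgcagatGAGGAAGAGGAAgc
Csf2rb2: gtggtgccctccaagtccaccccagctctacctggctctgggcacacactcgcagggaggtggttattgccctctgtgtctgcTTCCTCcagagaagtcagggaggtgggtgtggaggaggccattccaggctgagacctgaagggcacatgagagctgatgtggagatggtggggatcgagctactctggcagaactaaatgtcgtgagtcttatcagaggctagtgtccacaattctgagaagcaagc
Csf3r: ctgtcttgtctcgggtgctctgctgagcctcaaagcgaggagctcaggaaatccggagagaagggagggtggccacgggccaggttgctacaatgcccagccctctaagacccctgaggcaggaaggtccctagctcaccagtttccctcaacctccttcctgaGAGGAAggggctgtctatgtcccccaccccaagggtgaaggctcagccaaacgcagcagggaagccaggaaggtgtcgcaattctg
GAGGAA, the core bound by PU.1 (the product of *Spi1*, a factor that acts on many myeloid genes), occurred in the windows of *Csf2ra* (bases -14 to -9 and -8 to -3), *Csf2rb2* (bases -167 to -162 on the reverse strand, and again at 29 to 34 after the start) and *Csf3r* (bases -86 to -81), and in 28.3% of all 32851 promoter windows searched. These windows run from 250 bases before to 50 after each start. The NF-kB motif matched *Csf1* only, at -154 to -145 on the reverse strand, and was found in 4.51% of windows. The C/EBP motif TTGCNNAA (10.8% of windows), the AP-1 motif TGANTCA (7.81%) and the interferon-stimulated response element, ISRE (3.44%), matched none of the 4. A match is a description of these letters and not evidence of binding.

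Depth recovered from the smallest steps of the values ranged from 4.57 to 10.6 M reads per library in SVZ, 5.24 to 10.4 M in the LPS table and 2.21 to 5.37 M in the GLOBAL table. No 2 libraries of a table were identical (0 of 402 pairs). Control 24 hr replicate 4 and control 6 hr replicate 2 correlated less with their own groups (median r of 0.949 and 0.939) than the other libraries of the LPS table did (at least 0.964). SVZ control replicate 1 held far more choroid plexus RNA than the other SVZ libraries, with a summed marker level of 21240 FPKM where the other 4 controls had 16.2 to 117 FPKM. The 8 microglial markers examined, among them *Cx3cr1*, *P2ry12*, *Tmem119* and *Siglech*, were present in every sorted library, with a summed level of at least 5596 FPKM, but so were neutrophil transcripts: the 9 neutrophil markers summed to between 436 and 15340 FPKM in the LPS libraries and between 1285 and 23180 FPKM in the GLOBAL libraries.

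In SVZ tissue, the receptor that PLX3397 inhibits was almost lost after 14 days of drug while its ligands were not detectably altered. *Csf1r* and *Csf3r* fell, and *Csf1*, *Il34* and *Csf2ra* did not pass the test. *Csf1r* levels were 30.4, 39.9, 41.8, 38.2 and 43.8 FPKM in the control libraries, 0.230, 0.122, 0.1003, 0.0810 and 0.281 FPKM after 14 day PLX3397, and 1.77, 2.26, 1.27, 1.47 and 0.818 FPKM after 5 days of recovery. The 3 groups did not overlap. The PLX3397 mean was 0.419% of the control mean (0.163 ± 0.0877 against 38.8 ± 5.15 FPKM, SD, n = 5 each), which rested on 26 reads in all 5 libraries (95% Poisson interval 16.98 to 38.1, for counting error only). On the log2(FPKM + 1) scale, which understates the change of low values, the difference was -5.09 (SE 0.14, limma, Benjamini-Hochberg adjusted p = 2.62e-13), and -5.17 without SVZ control replicate 1.

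After 5 days without drug, *Csf1r* had risen to 9.33 times the PLX3397 level and stood at 3.91% of control (1.52 ± 0.539 FPKM, SD, n = 5). Both differences passed the test (1.09 on the log2 scale against PLX3397, adjusted p = 0.000841, and -4.00 against control, adjusted p = 9.57e-12). The recovery libraries held 232 *Csf1r* reads (95% Poisson interval 203 to 264), between 25 and 72 in each. In bulk tissue, fewer cells of a type and less RNA per cell cannot be told apart. Levels of microglial markers moved alongside: 7 of 8 were called lower with PLX3397 and 7 of 8 in recovery, both against control. Of all tested genes, 1.21% and 1.09% were called lower in these comparisons. The 8 markers stood at between 0.223% and 77.0% of control with PLX3397 (median 1.61%) and between 1.95% and 71.3% in recovery (median 4.73%). *Sall1* was the highest of them (77.0% and 71.3%). *Siglech* was at 0 in 4 PLX3397 libraries, *Fcrls* in 3 and *Cx3cr1* and *Gpr34* in 2 each. Markers of border macrophages, which also carry CSF1R, summed over the 5 listed to 3.90 to 7.72 FPKM in control, 1.21 to 2.49 FPKM with PLX3397 and 1.38 to 3.14 FPKM in recovery. Of the 3 tested, 1 was called lower with PLX3397 (1.21% of all tested genes) and 0 in recovery (1.09%). A marker that reaches 1 FPKM in control libraries only can pass the filter, and could then only be called lower than control. Erythrocyte markers, over the 4 listed, summed to 32.4 to 79.3 FPKM in control, 41.8 to 57.95 FPKM with PLX3397 and 91.3 to 336 FPKM in recovery. The part of cell number, of any of these kinds, in the *Csf1r* result was not tested.

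*Csf3r* was low in this tissue and fell with the drug. Its control levels were 1.01, 0.972, 1.40, 1.11 and 1.01 FPKM. With PLX3397 they were 0.0275, 0, 0.0240, 0.0259 and 0.135 FPKM, and in recovery 0, 0.0300, 0.340, 0.0255 and 0.157 FPKM. All control libraries stood above all libraries of the other groups, which overlapped each other. Only control libraries reached the 1 FPKM that the filter asks for. *Csf3r* was thus tested only through the group where it was high and could only be called lower than control. Its adjusted p-values against control are no separate support for the fall. The mean fell from 1.10 ± 0.175 to 0.0424 ± 0.0527 FPKM (SD, n = 5 each; -1.01 on the log2 scale, SE 0.10, adjusted p = 5.49e-06), or 3.85% of control, on 136 against 6 reads. Recovery stood at 10.03% of control (-0.93, adjusted p = 2.19e-05) on 19 reads and did not differ detectably from PLX3397 (0.08, adjusted p = 0.7097). Single libraries carried much of these low means: without PLX3397 replicate 5 the share was 1.76% of control, and without recovery replicate 3, which held 12 of the 19 reads, it was 4.81%. The 2 of 9 neutrophil markers listed in this tissue, *S100a8* and *S100a9*, summed to 0.558 to 3.17 FPKM in control, 0 to 4.22 FPKM with PLX3397 and 1.71 to 15.01 FPKM in recovery, and their part in the *Csf3r* values was not tested.

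*Csf2ra* did not follow the other receptor genes in this tissue. Its levels were 12.3, 15.3, 13.8, 9.05 and 13.1 FPKM in control, 13.3, 11.6, 15.7, 12.4 and 11.5 FPKM with PLX3397, and 12.1, 11.8, 13.1, 9.28 and 13.6 FPKM in recovery. The groups overlapped throughout, and the PLX3397 difference was 0.03 on the log2 scale (95% interval -0.24 to 0.30, adjusted p = 0.999). The recovery difference was -0.07 against control (adjusted p = 0.793) and -0.10 against PLX3397 (adjusted p = 0.718). Within a library, the ratio of *Csf2ra* to *Csf1r* averaged 0.3303 in control, 101 with PLX3397 and 9.04 in recovery. The PLX3397 ratios ran from 40.9 to 157 and divide by *Csf1r* levels of only 3 to 8 reads per library, so their mean is imprecise.

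The ligand genes were measured in every SVZ library. *Il34* was 26.5, 37.6, 39.0, 29.8 and 41.9 FPKM in control, 33.8, 37.2, 36.9, 29.7 and 45.4 FPKM with PLX3397, and 33.3, 35.7, 45.7, 31.7 and 36.7 FPKM in recovery, with full overlap of the groups (PLX3397 against control 0.07 on the log2 scale, 95% interval -0.22 to 0.36, adjusted p = 0.999). Its recovery difference was 0.07 against control (adjusted p = 0.805) and 0.0018 against PLX3397 (adjusted p = 0.997). *Csf1* was 3.27, 3.86, 3.81, 3.28 and 6.37 FPKM in control, 5.38, 4.84, 4.79, 6.84 and 4.39 FPKM with PLX3397, and 4.20, 4.45, 3.74, 2.85 and 3.87 FPKM in recovery. All PLX3397 libraries stood above 4 of the 5 control libraries but only 1 stood above the other one, so the groups overlapped (0.31, 95% interval -0.01 to 0.62, adjusted p = 0.846). That other library, control replicate 5 at 6.37 FPKM, is flagged below as far from the rest of its group. The recovery difference was -0.06 against control (adjusted p = 0.849) and -0.37 against PLX3397 (adjusted p = 0.253). *Il34* stood above *Csf1* in every SVZ library, with mean ratios of 8.76, 7.27 and 9.75 in control, PLX3397 and recovery.

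Of the 5 listed genes, 2 were called lower with PLX3397, against 1.21% of the 14151 genes tested (1.26% in either direction), and the same 2 did not overlap between groups, as 2.77% of genes did not. Against control, 2 of 5 were also called lower in recovery (background 1.09% lower, 1.27% in either direction, 3.1% without overlap). In both counts 1 of the 2 was *Csf3r*, which was tested only through its control libraries. Against PLX3397, 1 of 5 was called higher in recovery (background 0.29% higher, 0.325% in either direction, 3.53% without overlap). The control, PLX3397 and recovery libraries are each shared by a pair of these comparisons.

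**Figure D1:**
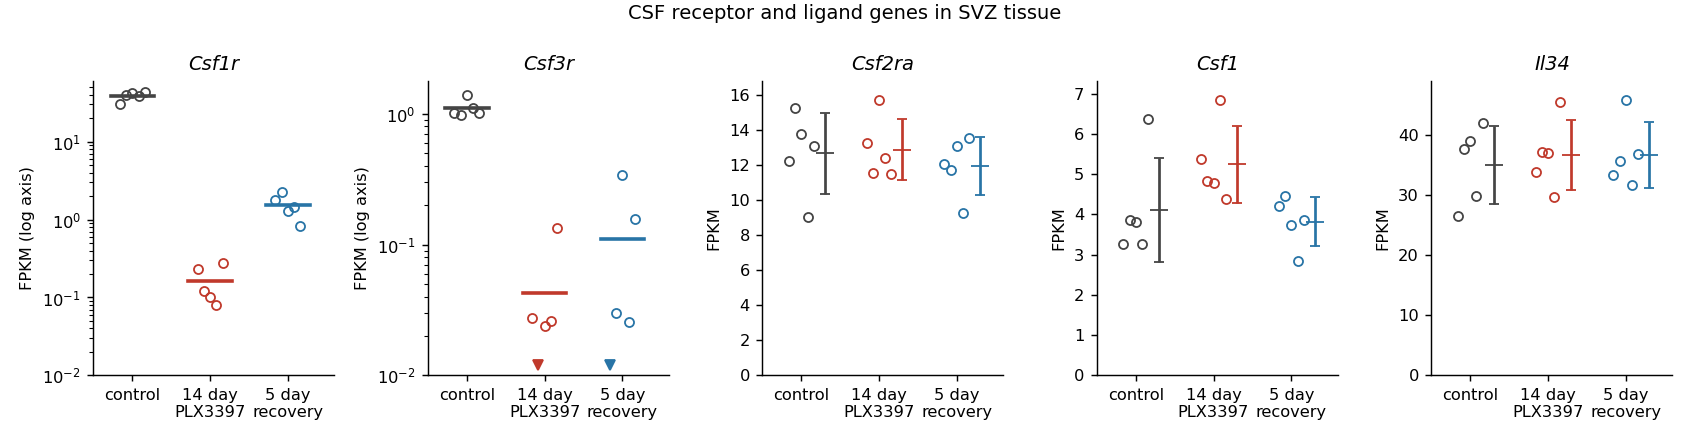
FPKM of the 5 listed genes in SVZ tissue, one circle per library, for vehicle-fed controls, PLX3397-fed mice and mice in recovery (5 libraries per group); *Csf1r* and *Csf3r* are on log axes with lines at the means and triangles for libraries at 0, the others on linear axes with mean and SD. *Csf1r* separates into 3 groups at means of 38.8, 0.163 and 1.52 FPKM, whereas *Csf2ra*, *Csf1* and *Il34* overlap.

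Among other genes of these pathways in SVZ tissue, most did not pass the test and those that did were lower with PLX3397. Of 17 tested signalling and feedback genes downstream of the CSF receptors, 4 fell and 0 rose with PLX3397, where 1.21% of all tested genes fell (list median -0.03 on the log2 scale, all tested genes 0.01). The count was 3 in some other fits, since the call of *Plcg2* was lost with the replicate block (adjusted p = 0.0537), in the fit of the compared groups alone (0.073) and without any 1 of 5 libraries. *Tyrobp*, an adaptor that couples myeloid receptors to SYK, averaged 0.355 FPKM against 62.8 FPKM (-5.54, adjusted p = 9.14e-13). *Ptpn6*, a phosphatase that dampens myeloid receptor signals, averaged 0.490 against 4.52 FPKM (-1.89, adjusted p = 1.65e-07). In recovery against control 4 of 17 were lower and 0 higher (1.09% of all tested genes lower), where *Tyrobp* was at 5.13 FPKM (-3.37, adjusted p = 1.49e-09) and *Ptpn6* at 1.06 FPKM (-1.44, adjusted p = 7.69e-06).

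Of 4 tested transcription factors known to act on *Csf1r*, 2 fell with PLX3397 and 2 were lower in recovery, beside 1.21% and 1.09% of all tested genes (list medians -0.97 and -1.03). *Spi1*, which encodes PU.1, averaged 5.95 FPKM in control, 0.0772 FPKM with PLX3397 (-2.69, adjusted p = 2.19e-11) and 0.856 FPKM in recovery (-1.91, adjusted p = 3.57e-09). *Irf8*, a factor of the macrophage lineage, averaged 3.08, 0.405 and 0.697 FPKM (-1.53, adjusted p = 3.57e-06, and -1.26, adjusted p = 4.65e-05). Between PLX3397 and recovery, *Spi1* (0.78, adjusted p = 0.00238) and *Tyrobp* (2.17, adjusted p = 1.16e-05) rose, the only members of their lists to do so.

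Of the 8 class III receptor tyrosine kinases and their ligands, the closest relatives of *Csf1r*, 1 fell with PLX3397, beside 1.21% of all tested genes (list median -0.02). This was *Pdgfra*, the PDGF receptor that marks oligodendrocyte precursors, at 5.20 ± 0.317 FPKM in control, 2.10 ± 0.491 FPKM with PLX3397 and 4.24 ± 0.128 FPKM in recovery (SD, n = 5 each; -1.01, adjusted p = 3.91e-06 for PLX3397 against control, and 0.77, adjusted p = 0.000970 for recovery against PLX3397). The 4 oligodendrocyte precursor markers, *Pdgfra* included, summed to 13.1 to 18.04 FPKM in control, 6.02 to 8.72 FPKM with PLX3397 and 6.43 to 10.3 FPKM in recovery, and their part in the *Pdgfra* result was not tested. The other kinases that PLX3397 inhibits were not called: *Kit* averaged 7.55 against 6.86 FPKM and *Flt3* 3.91 against 4.39 FPKM (adjusted p = 0.999 for both). The list of other CSF family cytokines and receptor chains had 0 members tested, and *Ptprz1*, an IL-34 binding phosphatase and the 1 tested member of its list, was not called.

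In the sorted cells of the LPS table, *Csf1r* was the most abundant of the 6 listed genes and *Csf1* the least abundant before LPS. In control cells at 0 hr the mean levels were 1773 ± 291 FPKM for *Csf1r*, 92.3 ± 10.04 for *Csf3r*, 85.0 ± 13.2 for *Csf2ra*, 12.1 ± 2.91 for *Csf2rb*, 5.05 ± 0.758 for *Csf2rb2* and 3.10 ± 0.878 for *Csf1* (SD, n = 3). *Csf3r* and *Csf2ra* overlapped, as their ranges were 81.8 to 102 and 70.8 to 96.9 FPKM. The ranges of the other neighbours in this order did not overlap.

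After LPS, the receptor genes moved in opposite directions: *Csf1r* and *Csf3r* fell at 6 hr, and *Csf2ra*, *Csf2rb*, *Csf2rb2* and *Csf1* rose, in control cells and in WM repopulating cells alike. At 6 hr, 6 of 6 listed genes were called in control cells (4 higher, 2 lower), against 42.5% of the 12684 genes tested (21.4% higher, 21.1% lower), and 6 of 6 in WM repopulating cells (4 higher, 2 lower), against 38.8% (19.3% higher, 19.5% lower). At 24 hr, 5 of 6 were called in each cell group (4 higher, 1 lower), against 21.3% in control cells (12.1% higher, 9.23% lower) and 18.8% in WM repopulating cells (10.5% higher, 8.29% lower). Genes whose groups did not overlap made up 38.1% and 29.5% of all genes at 6 and 24 hr in control cells, and 39.9% and 25.1% in WM repopulating cells. The 6 hr and 24 hr comparisons of a cell group share its 0 hr libraries.

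*Csf2rb*, the shared beta chain, had the largest differences on the log2(FPKM + 1) scale at 6 hr. Its levels were 9.96, 10.9 and 15.4 FPKM in control cells at 0 hr, 60.9, 79.3, 42.5, 63.6 and 51.8 FPKM at 6 hr, and 30.7, 34.1, 28.7 and 39.8 FPKM at 24 hr. In WM repopulating cells they were 15.96, 15.1, 17.4 and 14.3 FPKM at 0 hr, 52.5, 67.7, 61.4 and 63.6 FPKM at 6 hr, and 37.2, 47.5, 39.8 and 44.9 FPKM at 24 hr. In both cell groups every 6 hr library stood above every 24 hr library, and every 24 hr library above every 0 hr library. Control cells rose 4.94-fold at 6 hr (log2 difference 2.21, SE 0.17, adjusted p = 5.48e-10) and 2.76-fold at 24 hr (1.40, adjusted p = 4.72e-06). WM repopulating cells rose 3.91-fold (1.90, SE 0.16, adjusted p = 3.38e-09) and 2.70-fold (1.38, adjusted p = 2.27e-06).

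Its copy *Csf2rb2* followed the same course at lower levels. Control cells held 5.80, 5.06 and 4.28 FPKM at 0 hr, 21.4, 36.0, 20.4, 27.7 and 21.7 FPKM at 6 hr, and 11.2, 11.6, 10.9 and 14.9 FPKM at 24 hr. WM repopulating cells held 9.07, 8.60, 6.76 and 6.72 FPKM at 0 hr, 22.4, 30.8, 26.7 and 27.9 FPKM at 6 hr, and 15.1, 17.04, 17.5 and 19.1 FPKM at 24 hr. The times did not overlap in either cell group. The rise in control cells was 5.04-fold at 6 hr (2.10, adjusted p = 1.24e-09) and 2.41-fold at 24 hr (1.12, adjusted p = 7.96e-05), and in WM repopulating cells 3.46-fold (1.67, adjusted p = 3.04e-08) and 2.21-fold (1.06, adjusted p = 6.90e-05). The stretches printed above show where reads of the pair can be told apart, and the part of shared reads in their like course was not tested.

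*Csf2ra*, the alpha chain, rose less and had its highest mean at 24 hr. Control cells held 87.5, 70.8 and 96.9 FPKM at 0 hr, 155, 132, 135, 168 and 148 FPKM at 6 hr, and 200.4, 233, 172 and 104 FPKM at 24 hr. WM repopulating cells held 134, 123, 119.6 and 117 FPKM at 0 hr, 204, 228, 167 and 160.4 FPKM at 6 hr, and 245, 159, 237 and 202 FPKM at 24 hr. Both LPS times stood above 0 hr without overlap in both cell groups, while 6 hr and 24 hr overlapped each other. The control rise was 1.74-fold (0.80 on the log2 scale, adjusted p = 0.00176) and 2.09-fold (1.01, adjusted p = 0.000876), and the WM rise 1.54-fold (0.60, adjusted p = 0.0127) and 1.71-fold (0.75, adjusted p = 0.00605). The WM call at 6 hr was lost without WM repopulation 6 hr replicate 2 (0.51, adjusted p = 0.0526).

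The ligand *Csf1* rose from a low level. Control cells held 2.83, 2.40 and 4.09 FPKM at 0 hr, 8.50, 3.75, 5.89, 5.89 and 6.35 FPKM at 6 hr, and 9.68, 7.15, 8.51 and 6.15 FPKM at 24 hr. WM repopulating cells held 3.25, 2.43, 3.37 and 2.06 FPKM at 0 hr, 6.32, 8.93, 5.37 and 5.32 FPKM at 6 hr, and 8.24, 8.98, 10.8 and 8.62 FPKM at 24 hr. Except for control replicate 2 at 6 hr, every LPS library stood above the 0 hr libraries of its cell group. The mean rose 1.96-fold at 6 hr (0.77, adjusted p = 0.00449) and 2.54-fold at 24 hr (1.12, adjusted p = 0.000711) in control cells, and 2.33-fold (0.98, adjusted p = 0.000479) and 3.30-fold (1.44, adjusted p = 2.06e-05) in WM repopulating cells.

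The CSF1 receptor itself fell. *Csf1r* levels in control cells were 1451, 1852 and 2017 FPKM at 0 hr, 1071, 1193, 1009, 999 and 836 FPKM at 6 hr, and 1339.9, 1198, 1313 and 595 FPKM at 24 hr. In WM repopulating cells they were 2039, 1996, 2142 and 2151 FPKM at 0 hr, 879, 1022, 1061 and 939.9 FPKM at 6 hr, and 1321, 1187, 1221 and 1083 FPKM at 24 hr. Every LPS library stood below every 0 hr library of its cell group. In control cells the 6 hr mean was 0.576 of the 0 hr mean (log2 difference -0.79, SE 0.19, adjusted p = 0.00185) and the 24 hr mean 0.627 of it (-0.73, adjusted p = 0.0111). In WM repopulating cells the shares were 0.469 (-1.10, SE 0.19, adjusted p = 5.35e-05) and 0.578 (-0.79, adjusted p = 0.00385). Without control 24 hr replicate 4, the library at 595 FPKM, the 24 hr difference in control cells was -0.45 (adjusted p = 0.0224). The same call was lost without control 0 hr replicate 3 (-0.63, adjusted p = 0.0657) and in a fit of the compared groups alone (adjusted p = 0.116).

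*Csf3r* fell at 6 hr and was closer to its starting level at 24 hr. Control cells held 81.8, 93.3 and 102 FPKM at 0 hr, 52.0, 65.6, 65.9, 51.9 and 51.3 FPKM at 6 hr, and 75.3, 91.7, 85.5 and 40.2 FPKM at 24 hr. WM repopulating cells held 122, 116, 117 and 109 FPKM at 0 hr, 63.2, 62.4, 49.7 and 56.3 FPKM at 6 hr, and 99.2, 96.3, 94.6 and 94.2 FPKM at 24 hr. The 6 hr libraries stood below all 0 hr libraries in both cell groups, and the 24 hr libraries did so in WM repopulating cells only. The 6 hr mean was 0.621 of 0 hr in control cells (-0.68, adjusted p = 0.00348) and 0.499 in WM repopulating cells (-0.99, adjusted p = 7.10e-05). The 24 hr differences were not called (-0.39, adjusted p = 0.144, and -0.27, adjusted p = 0.304), and the control difference was -0.13 (adjusted p = 0.527) without control 24 hr replicate 4. Across the LPS groups the 9 neutrophil markers, cells in which *Csf3r* is well known, summed to 1837 to 8942 FPKM at 0 hr, 904 to 5781 at 6 hr and 6406 to 15340 at 24 hr in control cells, and to 2902 to 10910, 436 to 10260 and 3192 to 7213 FPKM in WM repopulating cells. In control cells 1 of the 9 was called lower at 6 hr, beside 21.1% of all tested genes (list median -1.36). In WM repopulating cells 6 of 9 were called lower, beside 19.5% of all tested genes (list median -2.27). *Ly6g*, a defining neutrophil marker, was at 0 in 3 libraries of each 6 hr group. Their part in the *Csf3r* values was not tested.

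Microglial markers fell with LPS as *Csf1r* did. Their 8 genes summed to 18500 to 21520 FPKM at 0 hr, 5596 to 7958 at 6 hr and 9283 to 11950 at 24 hr in control cells, and to 16690 to 20120, 6429 to 7746 and 8648 to 11750 FPKM in WM repopulating cells. Of 5 monocyte markers, 4 were called higher at 6 hr and 1 at 24 hr in each cell group. Of all tested genes, 21.4% were called higher at 6 hr in control cells and 19.3% in WM repopulating cells. At 24 hr these shares were 12.1% and 10.5%. Their sums went from 101 to 324 FPKM at 0 hr to 1150 to 2273 at 6 hr and 426 to 542 at 24 hr in control cells, and from 122 to 385 to 1150 to 3192 and 126 to 650 FPKM in WM repopulating cells, and none of the 5 was at 0 in any LPS library. Whether a changed mix of cells within the gate has a part in the results after LPS was not tested.

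**Figure D2:**
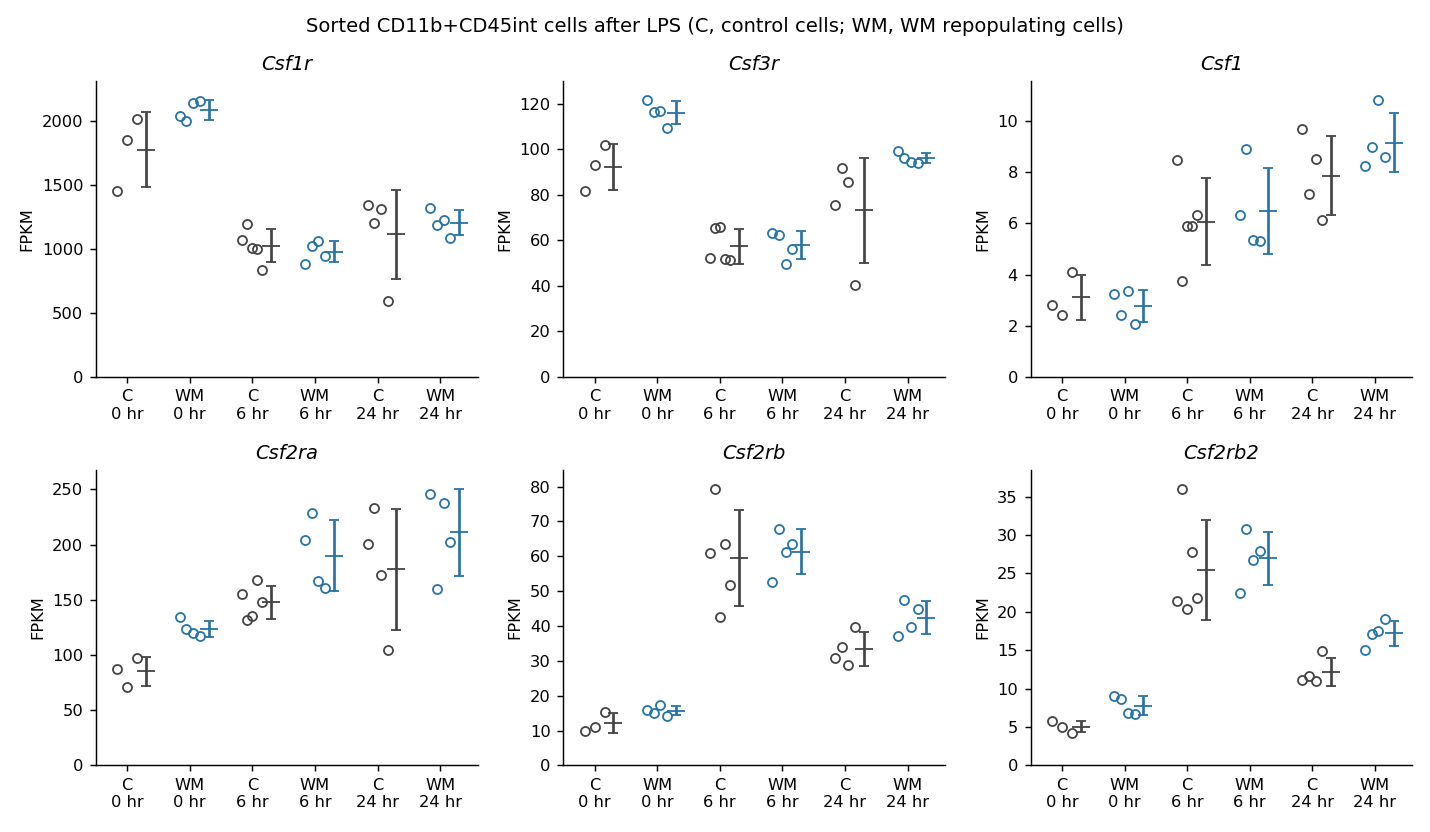
FPKM of the 6 listed genes in sorted CD11b+CD45int cells, one circle per library with the group mean and SD, for control cells (C, n = 3, 5 and 4) and WM repopulating cells (WM, n = 4 each) at 0, 6 and 24 hr after LPS, on linear axes from 0. *Csf1r* and *Csf3r* are lowest at 6 hr (means of 1022 and 57.3 FPKM in control cells), where *Csf2rb* and *Csf2rb2* peak (59.6 and 25.5 FPKM).

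**Figure D3:**
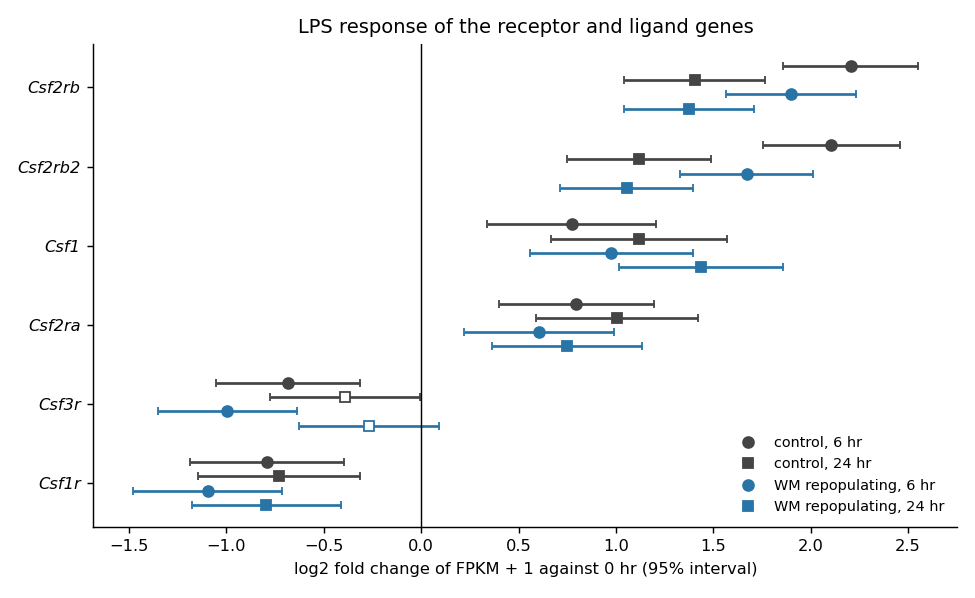
Log2 fold change of FPKM + 1 against 0 hr with its 95% interval from limma for each listed gene, in control (grey) and WM repopulating cells (blue) at 6 hr (circles) and 24 hr (squares); open symbols did not pass the adjusted threshold. The responses run from 2.21 (*Csf2rb*, control, 6 hr) to -1.10 (*Csf1r*, WM repopulating, 6 hr), and *Csf3r* at 24 hr is open in both cell groups.

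The balance of receptor transcripts shifted accordingly. The ratio of *Csf2ra* to *Csf1r* within a library averaged 0.0489 in control cells at 0 hr (range 0.0382 to 0.0603), 0.147 at 6 hr (0.110 to 0.177) and 0.163 at 24 hr (0.131 to 0.195). In WM repopulating cells the means were 0.0595, 0.196 and 0.175. In both cell groups every LPS library had a higher ratio than every 0 hr library. As a ratio within a library, it shows unequal change of the pair and not which of them moved.

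Whether the response differed between WM repopulating and control cells was tested directly, and none of the 6 genes passed. At 6 hr the difference of the responses (WM repopulating minus control) ran from -0.43 (*Csf2rb2*, 95% interval -0.92 to 0.06) to 0.20 (*Csf1*, -0.40 to 0.81), with *Csf1r*, *Csf2rb* and *Csf3r* at -0.31 each and *Csf2ra* at -0.19, and with adjusted p between 0.723 and 0.903. At 24 hr it ran from -0.26 (*Csf2ra*, -0.82 to 0.31) to 0.32 (*Csf1*, -0.30 to 0.94), with *Csf1r* and *Csf2rb2* at -0.06 each, *Csf2rb* at -0.03 and *Csf3r* at 0.12, and with adjusted p between 0.808 and 0.985. Without control 24 hr replicate 4 the 24 hr value was -0.49 for *Csf2ra* (adjusted p = 0.387) and -0.34 for *Csf1r* (adjusted p = 0.477), and without control 6 hr replicate 2 the 6 hr value was 0.068 for *Csf1*, -0.20 for *Csf2rb* and -0.31 for *Csf2rb2*. Over all 12684 genes limma called 3 (0.0237%) at 6 hr and 11 (0.0867%) at 24 hr, with 913 and 1105 at an unadjusted p under 0.05. A p that misses the threshold does not show that the responses were alike, and the widest of these intervals reached 0.94 on the log2 scale.

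Compared at the same time after LPS, WM repopulating cells and control cells did not differ in any of these genes beyond the threshold (0 of 6 called at 0, 6 and 24 hr, where limma called 1.21%, 0.323% and 3.97% of all tested genes). Some groups nevertheless did not overlap. At 0 hr all 4 WM libraries stood above all 3 control libraries for *Csf2ra* (0.54 on the log2 scale, 95% interval 0.13 to 0.96, adjusted p = 0.226), *Csf2rb2* (0.54, 0.17 to 0.90, adjusted p = 0.166) and *Csf3r* (0.33, -0.06 to 0.72, adjusted p = 0.507), when 13.6% of all tested genes did not overlap. At 24 hr *Csf2rb2* (0.47, adjusted p = 0.112) and *Csf3r* (0.45, adjusted p = 0.151) were again higher in all WM libraries, beside 12.1% of all genes. At 6 hr 0 of 6 did so (3.78% of all genes), and the differences were -0.06 for *Csf1r*, 0.09 for *Csf1*, 0.35 for *Csf2ra*, 0.06 for *Csf2rb*, 0.10 for *Csf2rb2* and 0.02 for *Csf3r* (adjusted p between 0.564 and 0.9895). Without control 6 hr replicate 2 they were -0.0032 for *Csf1r*, -0.045 for *Csf1*, 0.17 for *Csf2rb*, 0.23 for *Csf2rb2* and 0.068 for *Csf3r* (none called). Groups overlapped for *Csf1* (-0.11 at 0 hr and 0.21 at 24 hr) and *Csf2rb* (0.37 and 0.34) at both other times, and for *Csf2ra* at 24 hr (0.29). Without control 24 hr replicate 4, the 24 hr differences were 0.57 for *Csf2rb2* (adjusted p = 0.0724), 0.19 for *Csf3r* (adjusted p = 0.462), 0.055 for *Csf2ra* and 0.11 for *Csf1*. For *Csf1r*, the 0 hr difference was 0.24 (95% interval -0.17 to 0.66, adjusted p = 0.680), and at 24 hr it was 0.18 with all libraries and -0.10 without control 24 hr replicate 4.

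Related genes in the sorted cells moved in both directions at 6 hr, as did all tested genes. In control cells, 9 of 21 signalling and feedback genes rose and 3 fell, beside 21.4% and 21.1% of all genes (list median 0.11, all tested genes 0.01), and in WM repopulating cells 7 rose and 4 fell, beside 19.3% and 19.5% (median -0.12). *Cish*, a feedback inhibitor induced by STAT5, averaged 5.89 against 1.02 FPKM in control cells (1.64 on the log2 scale, adjusted p = 0.00678, and 0.0667 without control 0 hr replicate 2) and 4.49 against 1.01 FPKM in WM repopulating cells (1.41, adjusted p = 0.0165), where the call was lost at a pseudocount of 0.1 (adjusted p = 0.0558). *Socs3*, a feedback inhibitor induced by STAT3, averaged 152 ± 162 against 38.0 ± 18.7 FPKM in control cells (SD, n = 5 and 3; 1.63, adjusted p = 0.0187) and its call was lost without control 6 hr replicate 2 (1.13, adjusted p = 0.0518) or control 0 hr replicate 1 (1.27, adjusted p = 0.113). *Stat3* itself averaged 174 against 62.9 FPKM in WM repopulating cells at 6 hr (1.41, adjusted p = 5.36e-06) and 115 FPKM at 24 hr (0.86, adjusted p = 0.00354). At 24 hr, 0 of 21 were called in control cells, where 21.3% of all genes were, and 1 rose (*Stat3*) and 1 fell (*Tyrobp*, -0.36, adjusted p = 0.0352, lost in several other fits) in WM repopulating cells, beside 10.5% and 8.29% of all genes. At 6 hr the number called of the 21 ran from 9 to 13 in control cells and from 6 to 14 in WM repopulating cells over all other fits and left-out libraries.

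Of 5 tested transcription factors known to act on *Csf1r*, 2 rose and 2 fell at 6 hr in each cell group, where 42.5% of all genes were called in control and 38.8% in WM repopulating cells, in near equal parts each way (list medians 0.49 in control and 0.28 in WM repopulating cells). *Cebpb*, a C/EBP factor of inflammatory myeloid cells, held 65.9, 67.3 and 110.4 FPKM in control cells at 0 hr and 266, 302, 288 and 252 FPKM in WM repopulating cells. It was the 1 gene of these lists to differ between the cell groups before LPS (1.80 on the log2 scale, SE 0.32, adjusted p = 0.00459). With LPS it rose in control cells to a mean of 692 FPKM at 6 hr (3.10, adjusted p = 2.79e-08) and 228 FPKM at 24 hr (1.32, adjusted p = 0.00490, and 0.0745 in a fit of the compared groups alone), and in WM repopulating cells to 876 FPKM at 6 hr (1.65, adjusted p = 0.000110). At 24 hr WM repopulating cells held 432 FPKM, a difference of 1.08 from control cells (adjusted p = 0.0421) that was lost in 5 of 7 other fits with all libraries and without control 24 hr replicate 4 (0.67, adjusted p = 0.142).

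*Runx1*, a factor of blood cell development, rose from 26.9 to 64.4 FPKM in control cells at 6 hr (1.17, adjusted p = 7.19e-06) and from 25.3 to 51.4 and 45.7 FPKM in WM repopulating cells at 6 and 24 hr (0.98, adjusted p = 5.05e-05, and 0.82, adjusted p = 0.00103). *Cebpa*, the C/EBP factor of myeloid differentiation, fell at 24 hr from 53.6 to 27.3 FPKM in control cells (-0.94, adjusted p = 0.00645) and from 78.2 to 47.8 FPKM in WM repopulating cells (-0.72, adjusted p = 0.0237, and above 0.05 without any 1 of 4 WM libraries). Its 6 hr fall in control cells, counted above, was -0.71. That call was lost without control 0 hr replicate 3 (-0.59, adjusted p = 0.0809) and in a fit of the compared groups alone (adjusted p = 0.0710).

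Among the other CSF family members, 2 of 2 tested genes rose at 6 hr in control cells (21.4% of all genes) and 1 of 2 in WM repopulating cells (19.3%), and neither gene passed the test of a difference between the responses (adjusted p = 0.904 for *Csf3* and 0.982 for *Il3ra*). *Csf3*, the ligand of CSF3R, was at 0 in all 7 libraries at 0 hr and was detected in all 5 control libraries at 6 hr, at 1.20, 59.4, 0.527, 0.920 and 0.700 FPKM (adjusted p = 0.0369), a call carried in size by replicate 2 and lost without any single control 0 hr library (adjusted p between 0.0814 and 0.0836). In WM repopulating cells *Csf3* was 0.658, 2.38, 0.911 and 1.54 FPKM at 6 hr and was not called. *Il3ra*, the alpha chain that pairs with the beta chains for interleukin 3, averaged 6.77 against 2.32 FPKM in control cells (1.40, adjusted p = 0.00348, and 0.0776 without control 0 hr replicate 2) and 5.11 against 1.22 FPKM in WM repopulating cells (1.47, adjusted p = 0.00199). *Sdc1*, a syndecan that binds IL-34 and the 1 tested gene of its list, rose from 0.0170 to 1.28 FPKM in control cells (1.08, adjusted p = 0.00165) and from 0.112 to 0.747 FPKM in WM repopulating cells (0.64, adjusted p = 0.0487, above 0.05 in several other fits).

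Of 5 tested class III kinases and ligands, 2 fell at 6 hr in each cell group and 0 rose, beside 21.1% and 19.5% of all genes that fell (list medians -0.75 and -0.43). *Pdgfb*, a PDGF ligand, fell from 36.9 to 15.9 FPKM in control cells (-1.22, adjusted p = 7.86e-06) and from 36.1 to 17.04 FPKM in WM repopulating cells (-1.04, adjusted p = 4.50e-05). *Kitl*, the KIT ligand, fell from 2.94 to 1.248 FPKM (-0.89, adjusted p = 0.00976) and from 3.399 to 1.49 FPKM (-0.79, adjusted p = 0.0187), calls that other fits or the loss of 1 library ended. At 24 hr in control cells *Pdgfa* (-0.67, adjusted p = 0.0279) and *Pdgfb* (-0.55, adjusted p = 0.0402) were called lower, and *Pdgfb* was not called without any 1 of 7 libraries, *Pdgfa* without any 1 of 4.

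In the GLOBAL table, all 7 genes were listed and 0 of 7 were called between repopulated and control cells. Limma called 0 of 16651 genes there (0%), with 1504 at an unadjusted p under 0.05. *Csf1r* was 2461, 2826, 2652 and 2859 FPKM in control and 2934, 3022 and 2723 FPKM in repopulated cells, which overlapped (0.10 on the log2 scale, 95% interval -0.24 to 0.45, adjusted p = 0.862). *Csf3r* was 142, 147, 149 and 164 FPKM in control and 162, 175 and 184 FPKM in repopulated cells (0.20, -0.06 to 0.47, adjusted p = 0.629). The 9 neutrophil markers summed to 2160 to 23180 FPKM in control and 1285 to 4668 FPKM in repopulated cells, and their part in *Csf3r* was not tested.

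*Csf1* was the 1 gene of the 7 whose GLOBAL groups did not overlap. It was 6.53, 7.89, 7.65 and 5.49 FPKM in control and 4.59, 5.01 and 4.81 FPKM in repopulated cells, lower in 3 of 3 repopulated libraries (-0.43, 95% interval -0.83 to -0.03, adjusted p = 0.5255). In the same comparison 9.96% of all tested genes did not overlap. In the LPS table, the WM repopulating cells at 0 hr overlapped their controls for *Csf1*.

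The alpha chain gene and the beta chain pair overlapped between the GLOBAL groups. *Csf2ra* was 107, 86.8, 69.0 and 93.6 FPKM in control and 118, 104 and 112 FPKM in repopulated cells (0.34, -0.01 to 0.68, adjusted p = 0.559). *Csf2rb* was 36.1, 46.4, 35.0 and 37.2 FPKM against 43.7, 41.7 and 38.8 FPKM (0.10, -0.21 to 0.41, adjusted p = 0.844), and *Csf2rb2* was 38.3, 39.6, 36.9 and 41.1 FPKM against 39.7, 40.5 and 38.9 FPKM (0.02, -0.24 to 0.29, adjusted p = 0.964). *Il34* was near the detection limit in these sorted cells, at 0.641, 3.70, 1.86 and 0.224 FPKM in control and 1.61, 0.608 and 0.702 FPKM in repopulated cells, values that rest on 2 to 15 reads per library. Of the related genes, 0 of 35 tested over the 5 lists were called.

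**Figure D4:**
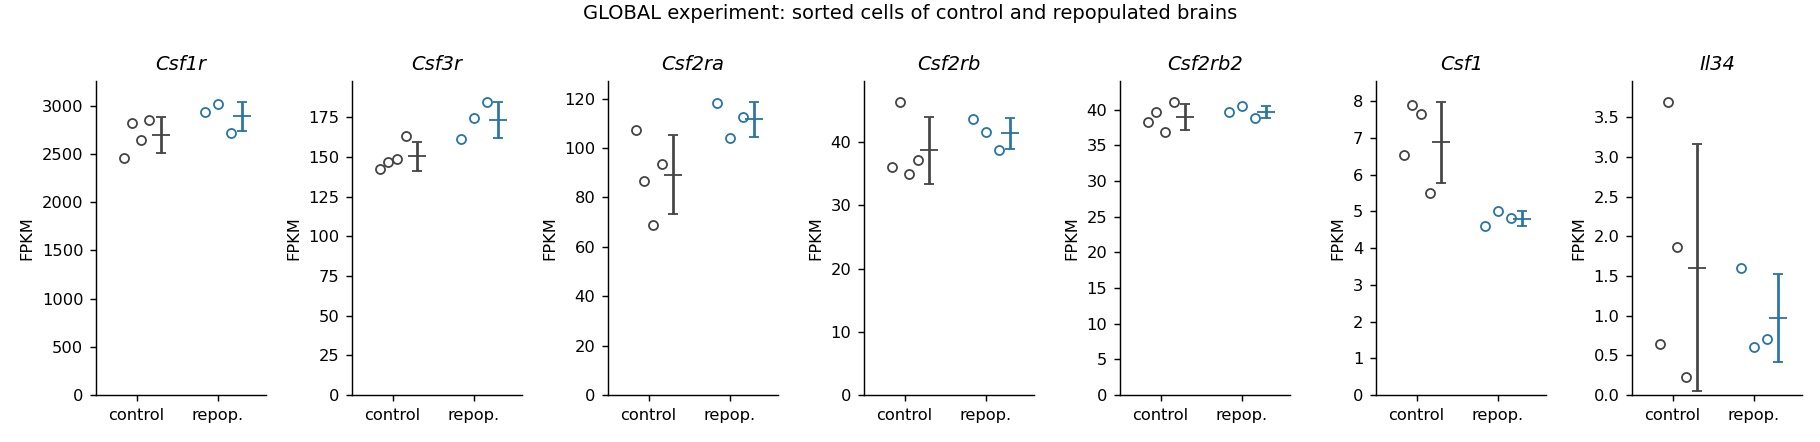
FPKM of the 7 genes in sorted cells of GLOBAL control (n = 4) and GLOBAL repopulated brains (n = 3), one circle per library with the group mean and SD, on linear axes from 0. *Csf1* is the 1 gene without overlap, at 5.49 to 7.89 FPKM in control and 4.59 to 5.01 FPKM in repopulated cells.

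The balance between the beta chain copies is the 1 value set across tables here, since a library's depth cancels in a ratio within it and both tables used the same lengths (4765 bases for *Csf2rb* and 4619 for *Csf2rb2*, as recovered from the values). The ratio of *Csf2rb2* to *Csf2rb* within a library averaged 0.442 ± 0.153 in control cells at 0 hr, 0.428 ± 0.048 at 6 hr and 0.365 ± 0.018 at 24 hr, and 0.4995 ± 0.088, 0.439 ± 0.012 and 0.407 ± 0.036 in WM repopulating cells (SD, n as above). It was 1.02 ± 0.112 in GLOBAL control and 0.961 ± 0.048 in GLOBAL repopulated cells. Its lowest GLOBAL library (0.854) stood above its highest LPS-table library (0.582). The gap was not given a test. The parts of the mix of cells in the gate and of how reads of the shared stretches were assigned in each table were not tested.

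**Figure D5:**
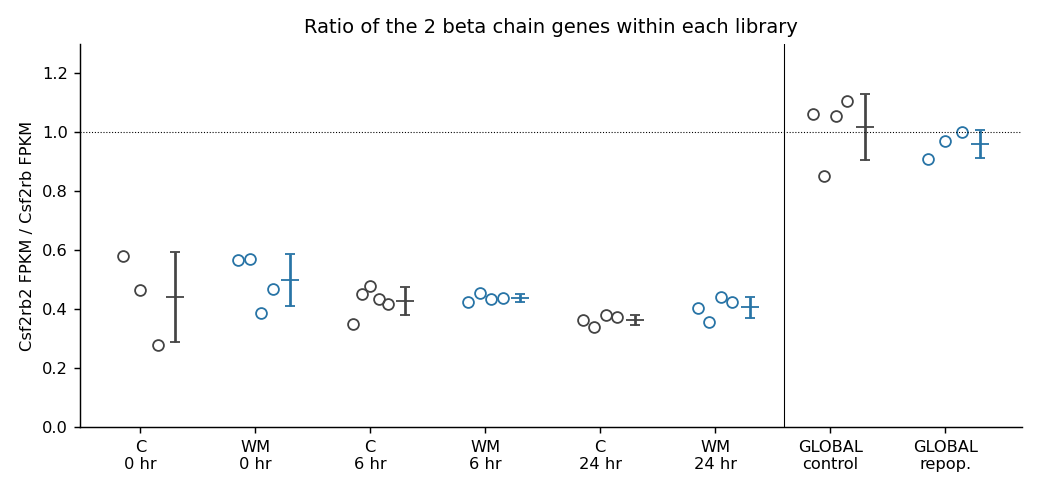
Ratio of *Csf2rb2* to *Csf2rb* FPKM within each sorted-cell library (circles) with group mean and SD, for the LPS table (left of the line) and the GLOBAL table (right); the dotted line marks equal levels. LPS-table libraries lie between 0.278 and 0.582 and GLOBAL libraries between 0.854 and 1.11.

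The genes whose levels followed each member most closely were found by Pearson correlation of log2(FPKM + 1) over all libraries of a table, as a description that includes the differences between groups. Over 15 SVZ libraries *Csf1r* was followed by *Fcrls* (r = 0.998), *Cx3cr1* (0.997) and *Cd53* (0.997), and *Csf3r* by *Golm1* (0.986), *Sash3* (0.980) and *Fgd2* (0.974). *Csf2ra* was instead followed by *Iqsec2* (0.849), *Brsk1* (0.841) and *Slc25a23* (0.834), *Il34* by *St6galnac5* (0.924) and *Csf1* by *Larp6* (0.895). Over 24 sorted libraries *Csf2rb* was followed by *Slfn5* (0.972), *Rbpj* (0.967) and *Ifit1* (0.965), and *Csf2rb2* by *Rbpj* (0.966), *Csf2rb* (0.964) and *Gcnt2* (0.958). *Csf1r* was followed there by *Laptm5* (0.961), *Csf3r* by the microglial marker *Tmem119* (0.939), *Csf2ra* by *Sdc3* (0.900) and *Csf1* by *Cyp4f16* (0.900).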

How the data were processed

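The deposited tables hold FPKM, which the authors made from Smart-seq2 libraries sequenced as paired 43-base reads, aligned to mm10 with STAR, counted per gene with featureCounts and converted with edgeR and limma (per the labels and the study's methods). The labels also describe another library protocol and other dissections, and the study's methods are followed here. FPKM corrects for transcript length and depth but not for the mix of cells. Groups came from the labels. Low values were whole multiples of 1 read for 98.3% to 99.9% of low genes examined (tolerance 0.01), which gave the depths.

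Genes with at least 1 FPKM in at least 3 libraries of a table (14151, 12684 and 16651 genes) were tested on log2(FPKM + 1) with limma 3.58.1 in R 4.3.3, with all groups of a table in 1 fit, a variance trend, 2-sided tests, Benjamini-Hochberg adjustment over all tested genes and calls at adjusted p under 0.05, in 13 comparisons. The script was tested on simulated data. Each listed member is given in every comparison, with the 2 called genes of largest change from each pathway list. Members and lists were proposed with earlier results of these data known. *Cebpb* before LPS, *Kit*, *Flt3* and *Csf3* in WM repopulating cells are given beyond that rule. Alternatives were another pseudocount (0.1), no filter, median-ratio rescaling, quantile normalization, no trend, a replicate block, the compared groups alone and leaving out each library. Intervals on read counts cover counting error only. Python 3.11.15, pandas 2.3.3, scipy 1.17.1 and matplotlib 3.10.9 were used.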

Additional observations from a re-analysis of the deposited data

Results flagged for a closer look

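Of 52 groups of 4 or 5 libraries examined, 3 held a library far from the others by Dixon's test at the 95% level, which chance gives in about 1 of 20 groups. *Csf1* in SVZ control replicate 5 was 6.37 FPKM, where the other 4 controls lay between 3.27 and 3.86 FPKM. *Csf3r* in SVZ PLX3397 replicate 5 was 0.135 FPKM, where the others lay between 0 and 0.0275 FPKM. *Csf2rb2* in control 24 hr replicate 4 was 14.9 FPKM, where the others lay between 10.9 and 11.6 FPKM, and the same library was lowest of its group for *Csf1r*, *Csf3r* and *Csf2ra*. No difference of the LPS response between WM repopulating and control cells passed the test for any of the 6 listed genes.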

How the results depend on the processing

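Of 27 called results of the 7 genes, refitted 792 times, 3 refits lost the call (those of *Csf1r* at 24 hr in control cells and *Csf2ra* at 6 hr in WM repopulating cells given above) and 0 reversed. The number of members called ran from 4 to 5 for control cells at 24 hr and from 5 to 6 for WM repopulating cells at 6 hr when single libraries were left out.

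Differences that were not called changed sign in a few settings. Under quantile normalization they became 0.0306 for *Csf1* and, against PLX3397, -0.0342 for *Il34* and -0.0498 for *Csf3r* in SVZ recovery, 0.00029 for *Csf1r* between WM repopulating and control cells at 6 hr, 0.0303 for its 24 hr difference of responses, and -0.0171 for *Csf1r* and -0.0507 for *Csf2rb2* in GLOBAL. Median-ratio rescaling gave -0.00539 for GLOBAL *Csf2rb2*, and the replicate block -0.0192 for *Csf3r* at 6 hr. Leaving out single libraries gave, for PLX3397 against control, *Il34* -0.0209 to 0.14 and *Csf2ra* -0.0771 to 0.0962. For recovery against control it gave *Csf1* -0.12 to 0.0754, *Il34* -0.0191 to 0.14 and *Csf2ra* -0.18 to 0.00781, and against PLX3397 *Il34* -0.0791 to 0.0811. Between WM repopulating and control cells the ranges were -0.24 to 0.0522 for *Csf1* at 0 hr, -0.0547 to 0.205 for *Csf1*, -0.0488 to 0.17 for *Csf2rb* and -0.0255 to 0.0878 for *Csf3r* at 6 hr, and -0.0955 to 0.29 for *Csf1r* at 24 hr. For the 24 hr difference of responses they were -0.34 to 0.0743 for *Csf1r*, -0.20 to 0.0868 for *Csf2rb*, -0.15 to 0.0313 for *Csf2rb2* and -0.14 to 0.25 for *Csf3r*, and in GLOBAL -0.54 to 0.10 for *Il34* and -0.00046 to 0.0502 for *Csf2rb2*. The cause was not tested.

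Over all genes, fitting the compared groups alone moved the calls from 46 to 29 (SVZ recovery against PLX3397), 41 to 16 and 503 to 255 (WM repopulating against control at 6 and 24 hr), and 3 to 0 and 11 to 17 (difference of responses at 6 and 24 hr). A pseudocount of 0.1 gave 1 and 6 for the last pair. Without single libraries the counts ran from 153 to 180, 153 to 330 and 23 to 86 in the SVZ comparisons (PLX3397, recovery, recovery against PLX3397), 75 to 253, 23 to 75 and 291 to 681 between WM repopulating and control cells, 4594 to 5733 and 1934 to 3072 after LPS in control cells, 4211 to 5269 and 1882 to 2781 in WM repopulating cells, 0 to 3 and 6 to 29 for the differences of responses, and 0 to 1 in GLOBAL. Of 67 called results of pathway genes, 20 lost the call in another fit and 24 without some library.

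Deviations of same-numbered libraries correlated at r of -0.155 to 0.486 in SVZ, -0.19 to 0.266 in the LPS table and 0.0562 to 0.137 in GLOBAL (median 0.102, other pairs -0.0411). As not every pair of a table was above 0.1, the numbers were not taken to pair libraries. The replicate block gave 0 and 6 calls for the differences of responses and 55 against 0 in GLOBAL, none of them a member.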
